A study of Mus musculus with 12 samples.

Results

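The 10 epidermal keratins described here are Krt5, Krt14, Krt15, Krt1, Krt10, Krt2, Krt77, Krt80, Krt79 and Krt78. They were chosen by gene symbol as keratins of the basal and suprabasal layers of the skin, and all 10 were found among the 55487 genes that each table lists. RNA-seq was performed on cutaneous wounds of male C57BL/6JNarl mice, 6 weeks of age, for which no engineered allele was named. The full-thickness wounds were made by punch biopsy under isoflurane, treated once daily and covered with a dressing. The wounds of the sham group received Pluronic F127 gel alone, and the CAP-treated wounds received 10 µM capsaicin (CAP), the pungent agonist of the TRPV1 channel, in the same gel. Tissue was taken at day 3 or day 6, with 3 libraries in each of the 4 groups (sham day 3, CAP day 3, sham day 6 and CAP day 6). The excised tissue held the wound and the skin around it, so each library mixes new and old epidermis with dermis, vessels, immune cells and muscle. Mice had 2 wounds apiece, and the sources used here do not say which libraries, if any, came from the same mouse. The p values below measure the spread between libraries only.

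Keratins are the filament proteins of epithelial cells. A filament is built from pairs of a type I and a type II keratin, and the pair that a keratinocyte makes depends on its layer. Cells of the basal layer, which divide and hold on to the basement membrane, make Krt5 (type II) and Krt14 (type I). Cells that leave this layer and begin to differentiate replace that pair with Krt1 (type II) and Krt10 (type I). At the edge of a wound, keratinocytes that migrate make Krt6a, Krt6b, Krt16 and Krt17 in place of Krt1 and Krt10, and the suprabasal pair returns as the new epidermis stratifies.

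Of the 10 genes, 3 encode type I keratins and lie on the minus strand of mouse chromosome 11 (Krt10, Krt15 and Krt14, build mm10). The other 7 encode type II keratins and lie on the minus strand of chromosome 15 within 606844 bases. Their coordinates in the tables were identical to those of GENCODE M21 on GRCm38 for 10 of 10 genes. For Krt5 the gene spans chr15:101707070-101712898, for Krt14 chr11:100203162-100207548, for Krt1 chr15:101845426-101850794 and for Krt10 chr11:99385254-99389364.

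The bases just before the transcription start are shown because 5 of the members share a feature there. RefSeq promoter windows (GRCm38.p6) matched 7 members, and for 6 of them the RefSeq start lay within 7 bases of the GENCODE start. The 80 bases before the RefSeq start are printed for these 6 in the sense of the gene, with capitals for letters of a TATA box (ATAAAA, or else TATAAA, or else TATATA, on the sense strand, where matches may overlap).
Krt5 (chr15:101712906-101712985, minus strand): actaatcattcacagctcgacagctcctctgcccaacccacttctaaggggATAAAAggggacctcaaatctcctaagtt
Krt10 (chr11:99389365-99389444, minus strand): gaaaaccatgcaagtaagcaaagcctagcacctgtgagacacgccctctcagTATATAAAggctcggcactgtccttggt
Krt77 (chr15:101869706-101869785, minus strand): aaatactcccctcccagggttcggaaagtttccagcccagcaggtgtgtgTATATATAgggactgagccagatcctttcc
Krt2 (chr15:101818170-101818249, minus strand): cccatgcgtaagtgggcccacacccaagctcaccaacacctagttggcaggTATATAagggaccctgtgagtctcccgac
Krt78 (chr15:101954288-101954367, minus strand): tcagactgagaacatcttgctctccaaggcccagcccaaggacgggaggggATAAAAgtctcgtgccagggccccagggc
Krt79 (chr15:101940325-101940404, minus strand): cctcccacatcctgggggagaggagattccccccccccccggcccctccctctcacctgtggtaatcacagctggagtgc
The match began between 26 and 30 bases before the start in 5 of these 6 windows. The window of Krt14, whose RefSeq start lay 1518 bases from the GENCODE start, is not printed and held no match. Among all 32851 promoter windows in the RefSeq table, 5.16% held 1 of the 3 sets of letters in the 50 bases before the start. The letters were chosen after the windows had been seen, and a match is a description and not a proven site.

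TPM, the unit of the tables, is a gene's share of all transcripts of a library after correction for transcript length, so levels can be compared between genes. Summed over the 10 genes, the level was 29787 to 48382 TPM in sham day 3, 26416 to 47915 TPM in CAP day 3, 28496 to 30902 TPM in sham day 6 and 47817 to 97865 TPM in CAP day 6. The order of the members was similar in the first 3 groups. Krt14 led with a mean of 15910 ± 1553 TPM (SD, n = 3) in sham day 3, 16618 ± 5673 TPM in CAP day 3 and 8010 ± 658 TPM in sham day 6. Its range was clear of the next gene, Krt10, in both day 3 groups and overlapped it in sham day 6. Krt5 and Krt1 came after Krt10, with overlap between neighbours except below Krt10 in sham day 6. In CAP day 6 the suprabasal pair stood first, and the order was Krt10 (25778 ± 13073 TPM), Krt1 (19616 ± 8936 TPM), Krt14 (11022 ± 4528 TPM) and Krt5 (7496 ± 1399 TPM). The ranges of neighbours in that order overlapped, but the order was the same in each of the 3 libraries. Krt77 came next in every group, at a mean of 2730 to 4754 TPM. Krt80, Krt15, Krt78 and Krt79 reached at most 679 TPM in a single library, and Krt2 was lowest in every group at 1.74 to 11.4 TPM.

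**Figure D1:**
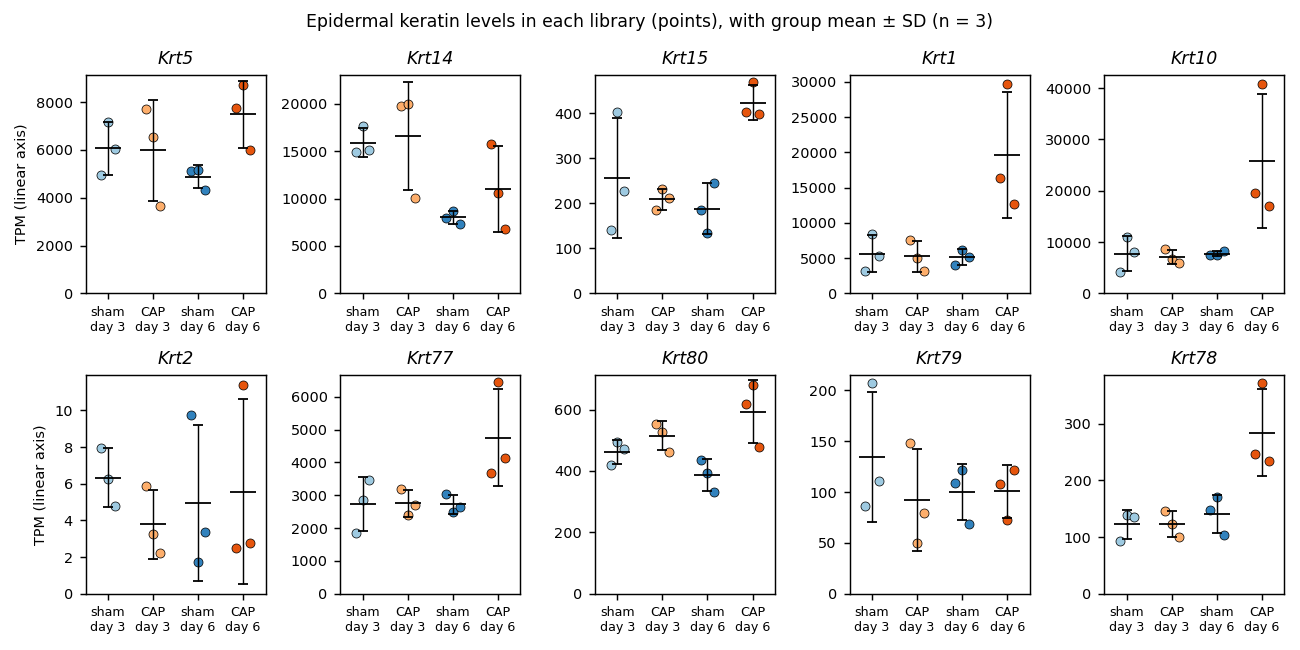
TPM of each keratin (linear axis from 0, a separate scale for each gene) in the 12 libraries, with points in replicate order 1 to 3 and bars for the group mean ± SD (n = 3). Krt1, Krt10, Krt15 and Krt78 were higher in each of the 3 CAP day 6 libraries than in any sham day 6 library, whereas Krt14 was high in most day 3 libraries.

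Krt5, Krt14 and Krt15 represent the basal layer. Krt14 was at 14894, 17697 and 15138 TPM in sham day 3 (replicates 1, 2 and 3), 19783, 20003 and 10069 TPM in CAP day 3, 7978, 8684 and 7369 TPM in sham day 6, and 15762, 10563 and 6740 TPM in CAP day 6. The day 3 libraries of the sham group were all above its day 6 libraries, while both CAP groups spread widely and CAP day 6 had libraries on either side of sham day 6. Its partner Krt5 was at 4963, 7183 and 6048 TPM in sham day 3, 7729, 6563 and 3655 TPM in CAP day 3, 5133, 5179 and 4337 TPM in sham day 6, and 7773, 8736 and 5979 TPM in CAP day 6. The 3 CAP day 6 libraries lay above all sham day 6 libraries, and the third CAP day 3 library was the lowest of the 12 for Krt5. Krt15, a basal keratin that also marks the stem cells of the hair follicle bulge, was at 141, 402 and 227 TPM in sham day 3, 185, 231 and 212 TPM in CAP day 3, 186, 133 and 246 TPM in sham day 6, and 402, 469 and 399 TPM in CAP day 6. All CAP day 6 libraries were high for Krt15, and replicate 2 of sham day 3 reached the same level.

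Krt1 and Krt10 form the pair of the suprabasal layers, and Krt77 and Krt2 are type II keratins of differentiated epidermis. Krt1 was at 3137, 8403 and 5335 TPM in sham day 3, 7510, 5090 and 3151 TPM in CAP day 3, 4010, 6224 and 5217 TPM in sham day 6, and 16381, 29718 and 12748 TPM in CAP day 6. Krt10 was at 4187, 10978 and 7995 TPM in sham day 3, 8668, 6700 and 5993 TPM in CAP day 3, 7432, 7490 and 8321 TPM in sham day 6, and 19544, 40801 and 16989 TPM in CAP day 6. For both genes the CAP day 6 libraries lay above the other 9 libraries, and replicate 2 of that group was the highest of the 12. Krt77 was at 3054, 2505 and 2630 TPM in sham day 6 and at 3694, 6444 and 4124 TPM in CAP day 6, against 1861 to 3468 TPM over the 6 day 3 libraries. The day 6 groups did not overlap for Krt77. Krt2, which in mice is best known from the tail, ear and sole, had no group that stood apart from another.

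Krt80 is a type II keratin found in many differentiating epithelia, Krt78 is made in the suprabasal epidermis, and Krt79 is known from the upper canal of the hair follicle and the sebaceous duct. Krt78 was at 93.1 to 139 TPM in sham day 3, 99.4 to 145 TPM in CAP day 3, 147, 171 and 104 TPM in sham day 6, and 248, 373 and 234 TPM in CAP day 6. Krt80 was at 437, 392 and 332 TPM in sham day 6 and at 620, 679 and 480 TPM in CAP day 6. For both genes the 2 day 6 groups did not overlap. Krt79 reached at most 207 TPM over the 12 libraries, and its groups overlapped in all 4 pairs compared.

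At day 3, CAP-treated wounds were compared with sham wounds to ask whether the treatment had changed the keratins early. A difference of 2-fold or more with an unadjusted limma p under 0.05 was required for a gene to count as past the threshold. The study's methods name the same fold and p cut-offs, but for DEseq or DEseq2 and not limma, so its calls can differ from those given here. None of the 10 keratins was past it, and none had an unadjusted p under 0.05. Among all 18330 genes tested, 1.58% were past the threshold. The differences (CAP minus sham) on the log2(TPM + 0.1) scale ran from -0.81 for Krt2 to 0.15 for Krt80, and the groups overlapped for all 10 genes, beside 11.6% of all genes tested whose groups did not overlap. For the pairs of each layer they were -0.07 for Krt5 (95% interval -0.84 to 0.70), 0.00 for Krt14 (-0.83 to 0.83), -0.07 for Krt1 (-1.14 to 0.99) and -0.03 for Krt10 (-0.93 to 0.88). The intervals of these 4 genes reach 0.70 or more in both directions, so changes within them were not detectable at day 3.

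At day 6, 4 of the 10 keratins were past the threshold and higher in CAP-treated wounds, namely the suprabasal pair Krt1 and Krt10, with Krt15 and Krt78. The other 6 were not past it. Among all 18323 genes tested, 1.46% were past it and higher, and 2.34% past it and lower. The median difference of the 10 keratins was 0.69 on the log2 scale, beside -0.12 for all genes tested.

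Krt1 rose by 1.86 ± 0.37 (SE) on the log2 scale, or 3.63-fold (95% interval 0.98 to 2.74, limma adjusted p = 0.205). Krt10 rose by 1.62 ± 0.38, or 3.08-fold (interval 0.72 to 2.52, limma adjusted p = 0.206). Krt15 rose by 1.21 ± 0.22, or 2.31-fold (interval 0.69 to 1.73, limma adjusted p = 0.205). Krt78 rose by 1.02 ± 0.24, or 2.02-fold (interval 0.44 to 1.59, limma adjusted p = 0.206). Each of the 4 genes was higher in 3 of 3 CAP libraries than in every sham library, which is the smallest exact permutation p that 3 against 3 libraries allow (2-sided, p = 0.1). None of the 18323 genes reached an adjusted limma p under 0.05 at day 6, against 3517 at an unadjusted p under 0.05, so the 4 calls do not pass correction over all genes.

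A further 3 members had an unadjusted p under 0.05 and groups without overlap but differed by less than 2-fold, with log2 differences of 0.76 for Krt77 (limma adjusted p = 0.22), 0.61 for Krt80 (adjusted p = 0.209) and 0.61 for Krt5 (adjusted p = 0.236). In all, the groups did not overlap for 7 of the 10 keratins, beside 26% of all genes tested. For Krt14 the difference was 0.38 with an interval of -0.43 to 1.19 (limma adjusted p = 0.553), which leaves room for no change and for a 2-fold increase. For Krt79 it was 0.02 (interval -0.62 to 0.66) and for Krt2 0.15 (interval -1.65 to 1.96). Without replicate 2 of CAP day 6, the library with the highest Krt1 and Krt10, the differences were 1.51 for Krt1, 1.24 for Krt10 and 1.13 for Krt15, which stayed past the threshold, and 0.81 for Krt78, which did not. Krt78 was also at 0.81 and not past it without replicate 3 of sham day 6, and Krt15 was at 0.98 and not past it without replicate 2 of sham day 6. Krt1 and Krt10 stayed past the threshold whichever of the 6 libraries was left out.

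**Figure D2:**
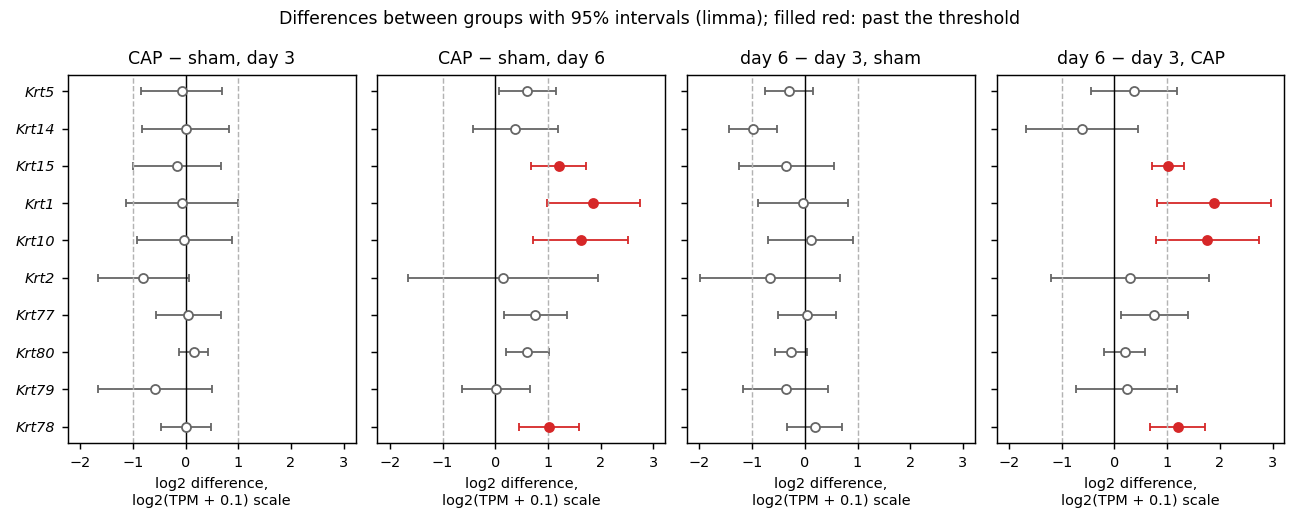
Differences of the 10 keratins on the log2(TPM + 0.1) scale with 95% intervals from limma, for CAP minus sham at each day and for day 6 minus day 3 in each treatment (3 libraries in each group, dashed lines at 2-fold). Filled red points mark the keratins past the threshold: 4 in CAP against sham at day 6 and the same 4 in day 6 against day 3 of CAP-treated wounds, with none in the other 2 panels.

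Between day 3 and day 6 of the sham group, none of the 10 keratins was past the threshold, beside 3.75% of 18368 genes. Krt14 was nearest to it, and it was the 1 keratin with an unadjusted limma p under 0.05. Its level at day 6 was 0.504 of that at day 3 (log2 difference -0.99 ± 0.19, limma adjusted p = 0.052), which lies just short of 2-fold. Without replicate 1 or 3 of sham day 3, or replicate 2 of sham day 6, the difference was -1.03, -1.02 and -1.05, past the threshold. The difference of its partner Krt5 was -0.30 (interval -0.75 to 0.15), that of Krt1 was -0.04 (-0.89 to 0.81) and that of Krt10 was 0.11 (-0.70 to 0.92). Krt14 was also the 1 keratin of 10 whose groups did not overlap, beside 21.4% of all genes tested.

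Between the same days of CAP-treated wounds, 4 of the 10 keratins were past the threshold and higher at day 6, beside 1.27% of 18202 genes. Krt1 rose by 1.90 ± 0.45 on the log2 scale (limma adjusted p = 0.295) and Krt10 by 1.76 ± 0.41 (adjusted p = 0.295). Krt78 rose by 1.20 ± 0.22, or 2.30-fold (limma adjusted p = 0.289), and Krt15 rose by 1.02 ± 0.13 on the log2 scale (adjusted p = 0.133), just over 2-fold. The Krt14 difference was -0.61 (interval -1.67 to 0.45). The groups did not overlap for 5 of the 10, namely these 4 and Krt77, beside 17.7% of all genes tested. This comparison shares its CAP day 6 libraries with the treatment comparison at day 6, so the calls in both do not count as separate evidence. Without replicate 2 of CAP day 6, 2 keratins were past the threshold (Krt1 at 1.55 and Krt10 at 1.37), and Krt78 and Krt15 were at 0.99 and 0.94. Without replicate 1 of CAP day 3, Krt15 was at 0.93 and not past it either.

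Whether the treatment difference itself changed between the days was tested by the interaction term over all 12 libraries. The difference between CAP and sham was larger at day 6 than at day 3 by 1.93 ± 0.62 for Krt1, 1.65 ± 0.56 for Krt10, 1.38 ± 0.45 for Krt15 and 1.01 ± 0.34 for Krt78 on the log2 scale. These 4 keratins were past the threshold, beside 2.18% of 20267 genes that were past it and higher, and each had an adjusted p of 0.428. Without replicate 2 of sham day 3, Krt15 was at 0.99 and Krt78 at 0.91, and neither was past the threshold. Krt78 was also not past it, at 0.80 to 0.93, without replicate 3 of sham day 3, CAP day 3 or sham day 6 or without replicate 2 of CAP day 6. The term was positive for all 10 keratins, with 0.68 for Krt5 (limma adjusted p = 0.504) and 0.38 for Krt14 (adjusted p = 0.769) among those not past the threshold.

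The balance of the layers was followed as the summed TPM of Krt1 and Krt10 over that of Krt5 and Krt14 in each library, as a description with no test. It was 0.369, 0.779 and 0.629 in sham day 3, 0.588, 0.444 and 0.666 in CAP day 3, 0.873, 0.989 and 1.16 in sham day 6, and 1.53, 3.65 and 2.34 in CAP day 6. All 6 libraries of day 3 were below all libraries of sham day 6, and these were below all libraries of CAP day 6. The means were 0.592 ± 0.208 (SD, n = 3), 0.566 ± 0.113, 1.01 ± 0.143 and 2.51 ± 1.07 in the same order of groups. On the log2 scale CAP exceeded sham by 1.24 at day 6 and differed by -0.02 at day 3.

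**Figure D3:**
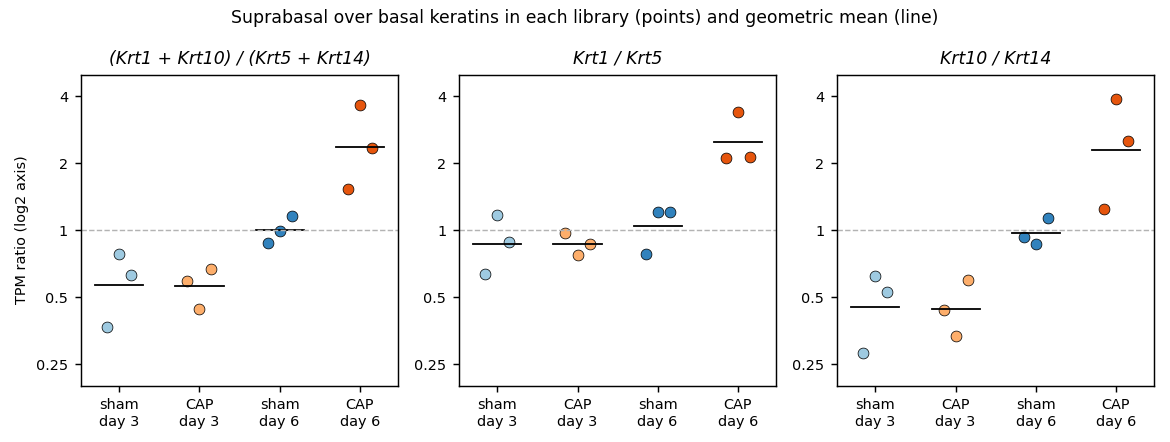
Ratio of suprabasal to basal keratin TPM in each of the 12 libraries (log2 axis, dashed line at 1), for the sum of both pairs, for the type II keratins Krt1 and Krt5, and for the type I keratins Krt10 and Krt14, with lines at the geometric mean of 3 libraries. In all 3 panels the CAP day 6 libraries lay above every sham day 6 library, from 1.53 to 3.65 against 0.873 to 1.16 in the first.

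The genes of the ratio did not contribute alike in each comparison. For CAP against sham at day 6, Krt1 and Krt10 rose, and Krt5 in the denominator was also 0.61 higher without overlap. In the sham group the ratio was 0.82 higher on the log2 scale at day 6 than at day 3, but Krt1 over Krt5 was only 0.26 higher and its groups overlapped, whereas Krt10 over Krt14 was 1.10 higher without overlap. Of the 4 genes in the ratio, only Krt14 differed between the days of the sham group without overlap. In CAP-treated wounds Krt1 over Krt5 was 1.52 higher and Krt10 over Krt14 was 2.37 higher at day 6. Within the suprabasal pair the levels kept step, with Krt1 over Krt10 at means of 0.666 to 0.772 in the 4 groups and overlap in all 4 comparisons. Within the basal pair they did not. Krt5 over Krt14 was 0.380 ± 0.040 and 0.361 ± 0.031 at day 3 (sham and CAP), and 0.610 ± 0.030 and 0.736 ± 0.212 at day 6, and the days did not overlap in either treatment.

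Sequence shared with other keratins may limit the values of the basal pair. Of all 31-base stretches in the transcripts of Krt14, 28.2% also occur in other genes, mainly Krt16 and Krt17, and of those of Krt5, 12.8% do, mainly Krt6a. For Krt15 it was 3.74%, and for Krt1, Krt10, Krt2, Krt77, Krt80, Krt79 and Krt78 under 1%. Krt16, Krt17 and Krt6a were themselves lower at day 6 than at day 3 in the means of both treatments, and the share of their reads in the Krt14 and Krt5 values was not tested.

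The wound-induced keratins Krt6a, Krt6b, Krt16 and Krt17 are the counterpart to Krt1 and Krt10 at the wound edge. None of the 4 was past the threshold or had an unadjusted limma p under 0.05 for CAP against sham at either day, with log2 differences of 0.06 to 0.10 at day 3 and -0.39 to 0.31 at day 6. In the sham group Krt6b fell by 1.42 (limma adjusted p = 0.0242) and Krt6a fell by 1.23 (adjusted p = 0.0327) on the log2 scale from day 3 to day 6. Among all genes tested, 1.61% were past the threshold and lower. The groups did not overlap for any of the 4, beside 21.4% of all genes tested. In CAP-treated wounds 3 of the 4 were past the threshold and lower at day 6, beside 1.52% of all genes tested. Krt6b fell by 1.55, Krt6a by 1.32 and Krt17 by 1.20 (limma adjusted p = 0.386 to 0.426). Krt16 fell by 0.79 and was not past the threshold, and the groups overlapped for all 4. Their summed TPM over that of Krt1 and Krt10 was 2.23 ± 1.06 in sham day 3, 2.30 ± 0.614 in CAP day 3, 0.900 ± 0.192 in sham day 6 and 0.334 ± 0.270 in CAP day 6. The 2 day 6 groups did not overlap in this ratio, in which both the wound-induced sum and the suprabasal pair take part.

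**Figure D4:**
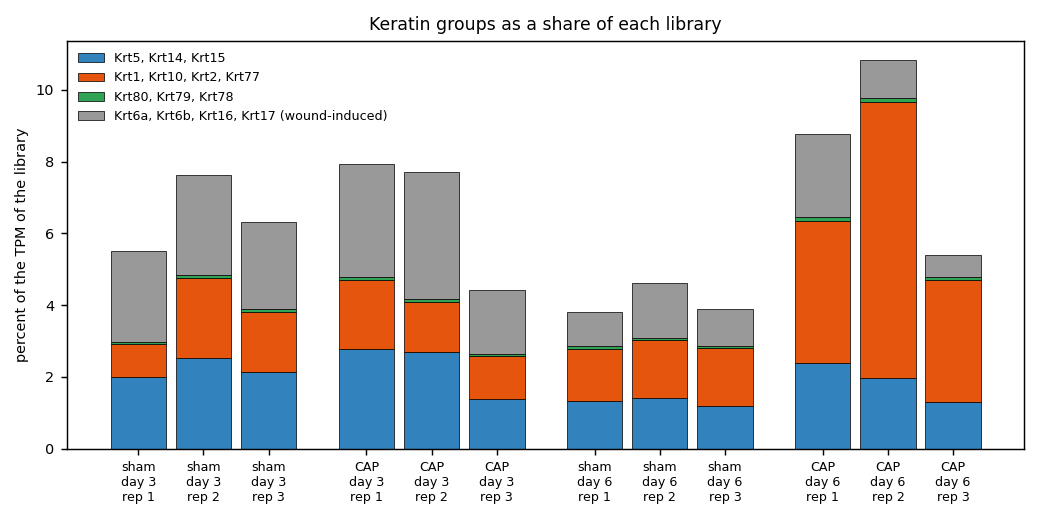
Share of the TPM of each library (percent, stacked bars from 0) taken by the basal, suprabasal and other differentiation keratins and by the wound-induced keratins, for 12 libraries in replicate order. The suprabasal share was 3.39% to 7.70% in CAP day 6 and 1.45% to 1.62% in sham day 6, and the wound-induced share of CAP day 6 ran from 0.627% to 2.31%.

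Other genes of the epidermal layers were taken from lists. One list held 13 genes of suprabasal differentiation (cornified envelope, filaggrin, desmosome and transglutaminase genes). In CAP-treated wounds at day 6, 7 of the 13 were past the threshold and higher, beside 1.46% of all genes tested. The other 6 were not past it, and all 13 differences were positive with a median of 1.02. No adjusted limma p in the list was below 0.205. Among the 4 most abundant, Lor (loricrin, the main protein of the cornified envelope) rose by 1.44 (limma adjusted p = 0.205) and Calm4, a calmodulin-like protein of the epidermis, by 1.26 (adjusted p = 0.207), while Krtdap and Sbsn, which are secreted by differentiating keratinocytes, had differences of 0.87 and 0.80 and were not past the threshold. Flg (filaggrin, which bundles keratin filaments in the upper layers) had the greatest difference of the list, at 2.26 (limma adjusted p = 0.205), and was named after its values had been seen. At day 3 none of the 13 was past the threshold or had an unadjusted limma p under 0.05.

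Of 8 genes of basal attachment and identity (hemidesmosome, basement membrane, Trp63 and P-cadherin genes), none was past the threshold in any of the 4 comparisons of 2 groups by limma. An unadjusted p under 0.05 was reached by 0 of the 8 for CAP against sham at day 3, 1 at day 6, 3 between the days of the sham group and 3 between the days of CAP-treated wounds. Among all genes tested the shares at an unadjusted p under 0.05 were 6.6%, 19.2%, 16% and 11.6% in the same order. At day 6 the difference between CAP and sham was 0.10 for Col17a1, a transmembrane collagen of hemidesmosomes. The median of the 8 was -0.02, beside 0.61 for Krt5, Krt14 and Krt15.

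A wound library mixes cell types, and in these bulk samples fewer cells of a type and less RNA per cell cannot be told apart. Genes of all epidermal layers (12 genes of junctions and epithelial identity, led by Perp and Sfn) summed to 4252 to 5661 TPM in sham day 6 and 5628 to 8824 TPM in CAP day 6, and 11 of the 12 differences were positive with a median of 0.54, although none of the 12 was past the threshold (9 had an unadjusted limma p under 0.05, beside 19.2% of all genes tested). Lists of other cell types differed in direction at day 6. Among all genes tested, 1.46% were past the threshold and higher in CAP, and 2.34% past it and lower. The 8 fibroblast markers summed to 19921 to 26574 TPM in sham and 15996 to 21822 TPM in CAP, with 7 of 8 lower, none past the threshold and 1 at an unadjusted limma p under 0.05. The 8 macrophage markers summed to 8212 to 12020 TPM and 4959 to 10766 TPM, with 8 of 8 lower, none past the threshold and 1 at an unadjusted limma p under 0.05. The 6 endothelial markers summed to 242 to 329 TPM and 73.0 to 201 TPM, with 3 of 6 past the threshold and lower. Their groups did not overlap for 5 of 6, beside 26% of all genes tested, and replicate 2 of CAP day 6 had the lowest sum. Neutrophil markers (167 to 295 TPM and 103 to 262 TPM) were lower for 5 of the 5 tested and skeletal muscle markers (3087 to 4378 TPM and 2308 to 3253 TPM) for 8 of 8, each with 1 past the threshold. Adipocyte markers were higher for 5 of 6, with 1 past the threshold and a median of 0.83, and summed to 288 to 492 TPM in sham and 274 to 512 TPM in CAP. Sebaceous markers were higher for 4 of the 4 tested, none past the threshold, with a median of 0.67, and summed to 2.63 to 3.12 TPM and 3.63 to 4.75 TPM. The 12 hair follicle genes summed to 16.0 to 101 TPM and 4.23 to 10.4 TPM, with the 101 TPM in replicate 1 of sham day 6. Only 1 of them, Tchh, passed the filter at day 6, and it was past the threshold and lower (log2 difference -1.96, limma adjusted p = 0.212). The part of these genes in the results, like that of the other cell types, was not tested.

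The keratins were therefore also expressed relative to the summed TPM of the 12 genes of all epidermal layers. In that scale Krt1 was 1.30 higher and Krt10 1.06 higher in CAP than in sham wounds at day 6 (log2), with no overlap between the groups. Krt78 was 0.46 higher without overlap, and Krt15 was 0.65 higher with overlap. For Krt5, Krt77 and Krt80 the relative differences were 0.05, 0.20 and 0.05, and for Krt14 -0.18, all with overlap. The wound-induced keratins were lower in CAP on this scale, at -0.58 for Krt6a, -0.63 for Krt6b, -0.25 for Krt16 and -0.95 for Krt17, each with overlap. When every gene was scaled by this sum, Krt1 and Krt10 were past the threshold and Krt15 and Krt78 were not. That scaling, chosen after seeing the data, also shifted the median of all genes to -0.67.

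**Figure D5:**
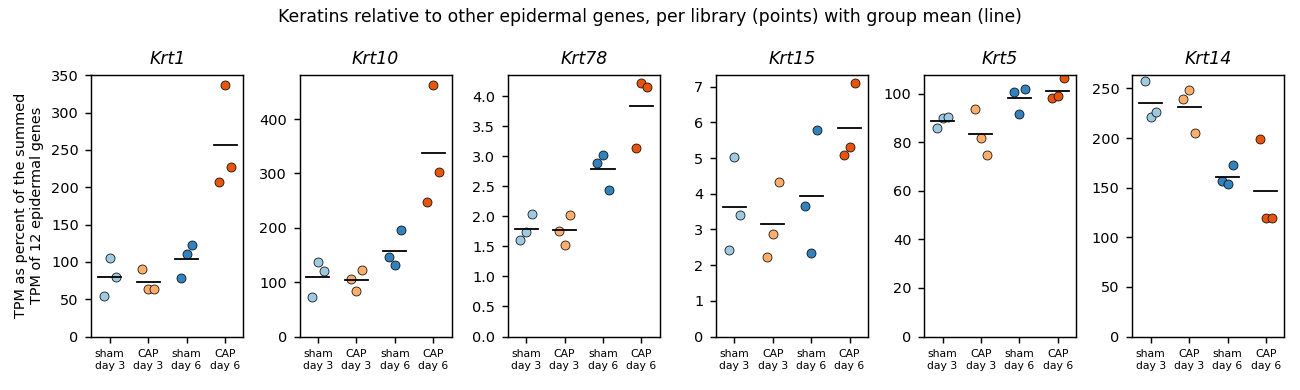
TPM of 6 keratins as percent of the summed TPM of 12 genes of all epidermal layers in each of the 12 libraries (points in replicate order, lines at the group mean, linear axes from 0). Krt1, Krt10 and Krt78 stood higher in CAP day 6 than in sham day 6 without overlap, Krt15 with overlap, Krt5 was near 100% in both day 6 groups, and Krt14 was lower at day 6 than at day 3 in both treatments.

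The members fell into patterns across the 12 libraries, given as descriptions because the libraries share their groups. The log2 levels of Krt1 and Krt10 correlated at r = 0.97 (Pearson, 12 libraries), whereas Krt5 and Krt14 correlated at r = 0.52. With the mean of Krt1 and Krt10, r was 0.94 for Krt78, 0.90 for Krt77, 0.83 for Krt15, 0.74 for Krt5 and -0.08 for Krt14. The basal keratin Krt15 was thus nearer to the suprabasal pair than to the mean of Krt5 and Krt14 (r = 0.25). Among the 16146 genes whose mean over the 12 libraries was 1 TPM or more, those most like Krt1 and Krt10 were Csnk2a2 (r = 0.99), Lce1c, Pgrmc2, Lor and Id4 (each r = 0.98). Lce1c and Lor are cornified envelope genes, Csnk2a2 is a catalytic subunit of casein kinase 2, and Id4 is an inhibitor of helix-loop-helix factors. Those most like Krt5 and Krt14 included Hook1, Rnf43, Gsdmc and Dsp, with r between 0.96 and 0.97, of which Dsp encodes desmoplakin of the desmosome. None of the genes named is a keratin.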

How the data were processed

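The authors deposited 12 tables, 1 per library, of TPM per gene, estimated with StringTie v2.1.4 on mm10 after bcl2fastq and Trimmomatic 0.36 (submitters' processing notes and the paper's methods). The aligner, annotation release and strand setting: not given in the sources used here. TPM carry no depth, which is therefore unknown, so counting error could not be given and precision rests on 3 libraries per group. Every library had 18533 to 19325 genes at 0.3 TPM or more.

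Genes were kept at a group mean of 0.3 TPM or more in both groups compared (for the interaction, in 1 or more of the 4) and were tested on log2(TPM + 0.1) with limma 3.58.1 (R 4.3.3, intensity trend, Benjamini-Hochberg adjustment over all genes tested), and all 10 keratins passed this filter in every comparison. This scale slightly understates changes of low genes such as Krt2. Exact permutation tests were 2-sided. Python 3.11.15 with pandas 2.3.3 and matplotlib 3.10.9 was used for tables and figures, and the fit was tested on simulated data. The design allowed for counts, and its part for TPM was used. Named genes were the 10 members, the most abundant of each list (up to 4) and, for each layer, the 5 genes with the highest Pearson r. Some genes that this rule names are not reported here. The members and lists were chosen with earlier results of these data known. Replicate numbers were not taken as pairs. Alternatives were other pseudocounts, filters, scalings, a joint fit, a replicate block and leaving out each library.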

Additional observations from a re-analysis of the deposited data

Results flagged for a closer look

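The treatment difference changed between day 3 and day 6 for 4 keratins by the interaction term, which is why they are listed here: Krt1 (1.93), Krt10 (1.65), Krt15 (1.38) and Krt78 (1.01), each as the day 6 minus the day 3 difference on the log2 scale. None passed correction over all genes (limma adjusted p = 0.428 for each). In the 6 libraries of day 3 the groups overlapped for each of the 4 genes, where 11.6% of all genes tested had no overlap. In the 6 libraries of day 6 the groups of the 4 did not overlap, beside 26% of all genes tested. The 4 were listed for their change between the days in these same libraries, so the overlap is a description and not separate evidence. With scaling to the genes of all epidermal layers the terms were 1.40 for Krt1, 1.11 for Krt10, 0.84 for Krt15 and 0.48 for Krt78, and the last 2 were no longer past the threshold. Those 2 were also not past it without replicate 2 of sham day 3, at 0.99 and 0.91.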

How the results depend on the processing

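TPM carry no depth and each group has 3 libraries, so only large differences could pass. For CAP against sham at day 6, 4 keratins were higher and past the threshold also with pseudocounts of 1 and 0.01 TPM, other filters, a joint fit, no intensity trend, median-ratio scaling and quantile normalization. With scaling to the genes of all epidermal layers (chosen after seeing the data) 2 remained past it there, and 2 in the interaction, namely Krt1 and Krt10. Leaving out 1 library at a time gave 3 to 4 keratins higher for CAP against sham at day 6, 2 to 4 between the days of CAP-treated wounds (2 without replicate 2 of CAP day 6) and 2 to 4 in the interaction (2 without replicate 2 of sham day 3). It gave 0 to 1 lower at day 3 (Krt2 without replicate 1 of CAP day 3) and 0 to 1 lower between the days of the sham group (Krt14 without replicate 1 or 3 of day 3 or replicate 2 of day 6, Krt2 without replicate 1 of day 6). Krt1 over Krt5 in place of the ratio of both pairs gave 0.26 against 0.82 between the days of the sham group and 1.52 against 2.08 in CAP-treated wounds.

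The direction changed only for members that were not past the threshold in the fit reported and in the alternative. At day 3 this was so with median-ratio scaling for Krt14 (0.061) and Krt10 (0.036), with quantile normalization for Krt77 (-0.019) and with epidermal scaling for Krt78 (-0.019). With epidermal scaling it was also so for Krt14 (-0.18), Krt2 (-0.39) and Krt79 (-0.54) in CAP against sham at day 6, for Krt5 (0.14), Krt15 (0.087), Krt1 (0.41), Krt80 (0.18) and Krt79 (0.079) between the days of the sham group, and for Krt14 (-0.16) and Krt80 (-0.082) in the interaction. Leaving out 1 library gave log2 ranges across 0 at day 3 of -0.29 to 0.25 for Krt5, -0.17 to 0.33 for Krt14, -0.54 to 0.22 for Krt15, -0.44 to 0.27 for Krt1, -0.41 to 0.28 for Krt10, -0.21 to 0.24 for Krt77 and -0.18 to 0.15 for Krt78. At day 6 they were -0.54 to 0.81 for Krt2 and -0.23 to 0.24 for Krt79. Between the days they were, in the sham group, -0.72 to 0.033 for Krt15, -0.40 to 0.31 for Krt1, -0.28 to 0.42 for Krt10, -0.21 to 0.24 for Krt77 and -0.0001 to 0.39 for Krt78, and in CAP-treated wounds -0.39 to 0.68 for Krt2 and -0.14 to 0.64 for Krt79. The causes were not tested.

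With the replicate number as a block, 4 keratins were higher at day 6, and the block changed no count of keratins past the threshold. The numbers were not taken as pairs. Same-numbered libraries correlated at -0.107 to 0.2 in their deviations from the group means, and libraries of different numbers at -0.188 to 0.17. The 0.2, between replicate 3 of CAP day 3 and of CAP day 6, was above the limit of 0.1 set for this check. Tissue of those 2 groups was taken at death on different days.

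Among all genes, those past the threshold numbered 290 at day 3 (154 with a pseudocount of 1 TPM, 568 with no filter), 697 at day 6 (311 without replicate 2 of CAP day 6, 3127 with epidermal scaling), 688 between the days of the sham group (405 with a pseudocount of 1 TPM, 1333 with epidermal scaling), 507 between the days of CAP-treated wounds (299 with a pseudocount of 1 TPM, 886 without replicate 3 of CAP day 6) and 994 in the interaction (580 with a pseudocount of 1 TPM, 1777 without replicate 3 of CAP day 6). The split at day 6 was 268 higher and 429 lower, against 393 and 298 with median-ratio scaling, 406 and 244 with quantile normalization and 46 and 3081 with epidermal scaling. At day 3 it was 78 and 212, against 101 and 160 with quantile normalization. Between the days it was 392 and 296 in the sham group, against 1211 and 122 with epidermal scaling, and 231 and 276 in CAP-treated wounds, against 177 and 359. In the interaction it was 441 and 553, against 122 and 1475.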
